A study of Arabidopsis thaliana with 4 samples.

Results

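Sulfur limitation and sulfate assimilation genes were followed in Arabidopsis thaliana leaves sampled in air and at the stage labelled R3, in wild type and in the mutant labelled myc2. The group holds 10 of the 31319 loci in the tables, namely LSU1, LSU2, LSU3, SDI1, APR1, APR2, APR3, SULTR1;1, SULTR1;2 and SULTR4;2. They were picked by name for their known roles, and with their R3-against-air values known, in particular the opposite directions of LSU1 in the 2 genotypes. All 4 libraries entered that choice, so every value of these genes is a description and nothing below tests them.

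The study asked, by its title, how jasmonate acts in the response of plants to reoxygenation after submergence. Leaf RNA was sequenced from 4 groups with 1 library each, in the Col-0 background, from 4-week-old plants with 6 plants behind each library. WT air and myc2 air are labelled as taken before submergence, and WT R3 and myc2 R3 as taken 3 h after it. The treatment protocol gives another scheme, with submergence in the dark for 24 h and harvests 0 and 24 h into reoxygenation, and R3 is dated here by the sample labels. The labels name the mutant genotype myc2 and the protocol names it myc2-2, which is 1 allele. MYC2 is a transcription factor of jasmonate signalling, and jasmonate is a hormone of stress and wounding. The R3 and air libraries also differ in a preceding dark period and in the time of harvest, and these cannot be told apart from submergence and reoxygenation here. With 1 library per group no difference has a replicate check, no test was run, and all intervals cover counting error only. In whole leaves, fewer cells of a type and less RNA per cell cannot be told apart.

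Plants take up sulfate through membrane carriers of the SULTR family, activate it to adenosine phosphosulfate (APS), and reduce APS to sulfite with APS reductase (APR) in plastids, before sulfide is built into cysteine. When sulfur runs short, uptake and reduction genes are known to be induced together with a marker set that includes the LSU genes (RESPONSE TO LOW SULFUR, small coiled-coil proteins) and SDI1 (SULFUR DEFICIENCY INDUCED 1, a repressor of glucosinolate synthesis). Jasmonate is known to act on sulfur metabolism as well, and sulfate assimilation supplies the cysteine for the antioxidant glutathione.

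The LSU genes lie in 2 tandem pairs, and the 300 bases before their annotated starts are shown here because the members of each pair sit side by side yet differed in their values. On chromosome 3, LSU1 (AT3G49580, 18374908 to 18375940) and LSU3 (AT3G49570, 18372404 to 18373147) are both on the minus strand with 1760 bases between them. On chromosome 5, LSU2 (AT5G24660, 8443279 to 8444101) and LSU4 (AT5G24655, 8440601 to 8441364), both on the minus strand too, have 1914 bases between them. SDI1 (AT5G48850) and GGCT2;1 (AT5G26220), both on the minus strand of chromosome 5, are shown because their values ran close together. The windows are chr3:18375941-18376240 for LSU1, chr3:18373148-18373447 for LSU3, chr5:8444102-8444401 for LSU2, chr5:8441365-8441664 for LSU4, chr5:19807854-19808153 for SDI1 and chr5:9164885-9165184 for GGCT2;1, all of the minus strand in the RefSeq assembly TAIR10.1. They are written 5′ to 3′ along the gene. Capitals mark a match, on either strand, to GAGAC (core of the sulfur-responsive element), CACGTG (the G-box, which MYC2 can bind), CACATG (a G-box variant) or ATGNANCT (an EIN3-like site).
LSU1: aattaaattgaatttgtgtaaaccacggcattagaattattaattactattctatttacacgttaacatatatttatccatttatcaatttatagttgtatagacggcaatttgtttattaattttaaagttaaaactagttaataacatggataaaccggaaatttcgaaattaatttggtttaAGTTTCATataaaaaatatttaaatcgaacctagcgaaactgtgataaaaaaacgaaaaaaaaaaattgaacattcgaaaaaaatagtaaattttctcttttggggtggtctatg
LSU3: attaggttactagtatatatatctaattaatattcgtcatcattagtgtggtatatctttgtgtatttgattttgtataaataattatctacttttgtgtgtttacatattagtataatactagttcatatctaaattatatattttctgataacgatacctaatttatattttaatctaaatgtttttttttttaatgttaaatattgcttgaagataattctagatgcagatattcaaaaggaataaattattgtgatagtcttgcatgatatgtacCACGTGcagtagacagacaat
LSU2: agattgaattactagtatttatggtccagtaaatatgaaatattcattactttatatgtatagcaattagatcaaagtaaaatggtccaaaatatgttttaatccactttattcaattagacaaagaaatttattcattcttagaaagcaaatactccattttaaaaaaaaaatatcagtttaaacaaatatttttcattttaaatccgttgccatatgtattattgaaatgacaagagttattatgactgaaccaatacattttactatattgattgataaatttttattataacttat
LSU4: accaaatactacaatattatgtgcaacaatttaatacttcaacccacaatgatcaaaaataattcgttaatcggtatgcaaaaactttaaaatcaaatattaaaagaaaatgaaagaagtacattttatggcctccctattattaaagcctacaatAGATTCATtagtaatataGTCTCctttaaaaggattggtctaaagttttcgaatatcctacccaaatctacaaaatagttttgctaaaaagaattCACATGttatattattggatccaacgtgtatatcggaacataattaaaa
SDI1: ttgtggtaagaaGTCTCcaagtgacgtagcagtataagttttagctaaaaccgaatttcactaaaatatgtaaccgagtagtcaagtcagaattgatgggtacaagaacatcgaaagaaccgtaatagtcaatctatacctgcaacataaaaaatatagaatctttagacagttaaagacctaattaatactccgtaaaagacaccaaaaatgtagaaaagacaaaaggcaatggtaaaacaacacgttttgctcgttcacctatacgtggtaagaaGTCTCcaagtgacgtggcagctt
GGCT2;1: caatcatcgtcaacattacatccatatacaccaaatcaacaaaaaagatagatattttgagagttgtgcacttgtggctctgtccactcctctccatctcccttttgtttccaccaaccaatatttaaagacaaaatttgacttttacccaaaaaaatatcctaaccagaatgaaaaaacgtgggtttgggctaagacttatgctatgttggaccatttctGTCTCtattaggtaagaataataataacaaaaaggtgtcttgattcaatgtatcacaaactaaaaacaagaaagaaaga

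Among all 27443 promoters of that length, GAGAC was held by 30%, CACGTG by 7.09%, CACATG by 13.1% and ATGNANCT by 15.2%. Of the 10 genes, 1 held GAGAC, which is SDI1 with 2 copies that begin at positions -288 and -23 from the start. The G-box was found in 1 of the 10 genes, LSU3, beginning at position -21, and CACATG was found in APR1. The EIN3-like letters were found in 3 of the 10, LSU1, SULTR1;1 and SULTR4;2. LSU1 and LSU3 thus shared none of these letters in this window, LSU2 held none, and LSU4 held 3 of the 4 motifs. GGCT2;1 held 1 copy of GAGAC. The SDI1 window also held an exact direct repeat of 25 bases around both GAGAC copies.
SDI1 repeat: gtggtaagaaGTCTCcaagtgacgt
A direct repeat at least that long was present in 241 of the 27443 promoters (0.878%). A letter match describes the sequence and is not evidence of binding.

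**Figure D1:**
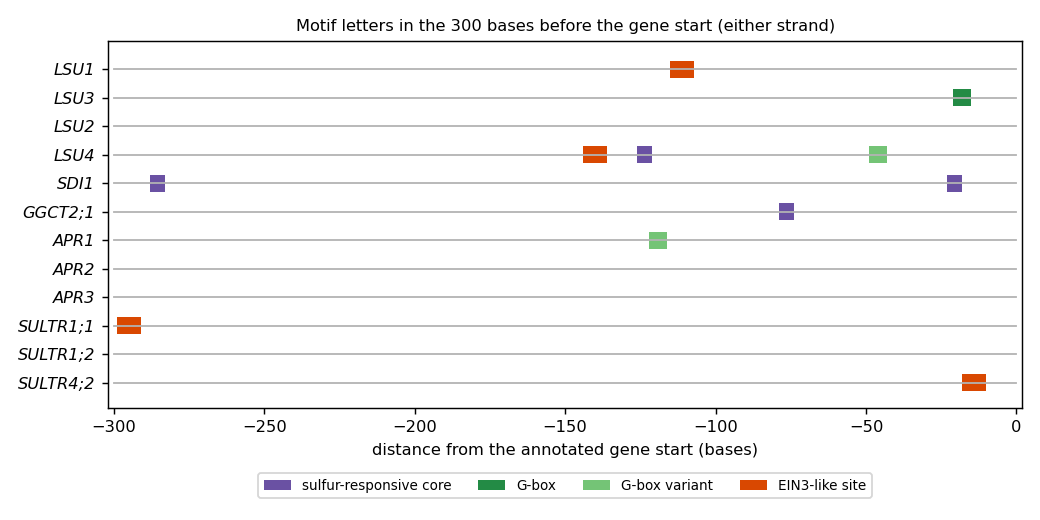
Positions of the 4 motifs in the 300 bases before each annotated gene start, in bases from the start, with 1 line per gene and 1 coloured block per match on either strand. SDI1 carries the sulfur-responsive core at both ends of the window, LSU3 carries the G-box near the start, and LSU2, APR2, APR3 and SULTR1;2 carry none of the 4.

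The tables give RPKM (reads for each kilobase of a gene and each 1000000 mapped reads), and 20722 of the 20743 loci with a value above 0 in every library could be turned back into whole reads. The read totals behind the values in units of 1000000 were 29.2 for air and 27.7 for R3 in WT, and 30.5 and 22.3 in myc2. MYC2 itself, the mutated gene, was at 45.9 RPKM in WT air and 91.7 in WT R3, against 14.2 in myc2 air and 34.9 in myc2 R3. It was 3.24-fold lower in myc2 than in WT in air (95% exact binomial interval 3.01 to 3.49) and 2.63-fold lower at R3 (2.49 to 2.77). A gene on the opposite strand (AT1G32630) overlaps 3241 of the 3289 annotated exon bases of MYC2. Reads of that gene and of MYC2 were not told apart. Leaf identity was plain in air, where 5 photosynthesis markers summed to 42890 RPKM in WT and 33203 in myc2. At R3 the same sum was 4341 in WT and 4342 in myc2. The 7 root markers summed to 3.05 RPKM in air and 64.7 at R3 in WT, and to 6.89 and 13.5 in myc2, of which PYK10 made up the most (2.91, 62.8, 6.54 and 11.4 RPKM in that order). The root-hair gene EXPA7 was listed at 0 in 3 libraries and at 0.0649 RPKM in myc2 R3. COBL9 lay between 0 and 0.0142 RPKM and CASP1 between 0 and 0.198, both at 0 in myc2 R3. IRT1 lay between 0.0215 and 0.227 RPKM, PRP3 between 0 and 0.085, and NRT2.1 between 0.0164 and 1.87. The 4 flower markers summed to 2.82, 12, 8.04 and 20.1 RPKM in that order. PI alone was higher at R3 (0.609, 11.3, 2.08 and 17 RPKM), while AP3, SEP3 and AG were lower at R3 than in air in both genotypes. The part of these markers in the R3 values of the sulfur genes was not tested.

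In both genotypes and both conditions the APR genes and LSU2 were the most abundant of the 10, with LSU3, LSU1, SDI1 and the sulfate carriers below them. Per kilobase, APR2 was the highest in both air libraries, at 65.3 RPKM in WT and 51.4 in myc2. APR3 was the highest in both R3 libraries, at 106 RPKM in WT and 131 in myc2. In WT air the order ran APR2, APR1, LSU2, APR3, LSU3, LSU1, SDI1, SULTR4;2, SULTR1;2 and SULTR1;1, from 65.3 RPKM to 0. Neighbours whose 95% exact Poisson intervals overlapped there were APR1 (44.9 to 48.4) and LSU2 (39.9 to 46.3), LSU3 (8.77 to 12.2) and LSU1 (6.54 to 9.45), and SDI1 (2.1 to 2.86) and SULTR4;2 (1.64 to 2.13). The lengths behind the deposited values differ from the exon lengths of the reference, being longer for SDI1 (2323 against 1214 bases) and APR3 (2160 against 1827) and shorter for LSU2 (556 against 823) and LSU1 (516 against 886). A longer length lowers a level and a shorter one raises it. Counted per annotated exon base instead, APR3 stood above LSU2 in air (34.1 against 29.0 in WT, 31.9 against 18.9 in myc2, in reads per exon kilobase and 1000000 mapped reads), and SDI1 (4.71) just above LSU1 (4.6) in WT air. Ratios of 1 gene between libraries do not depend on this length.

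**Figure D2:**
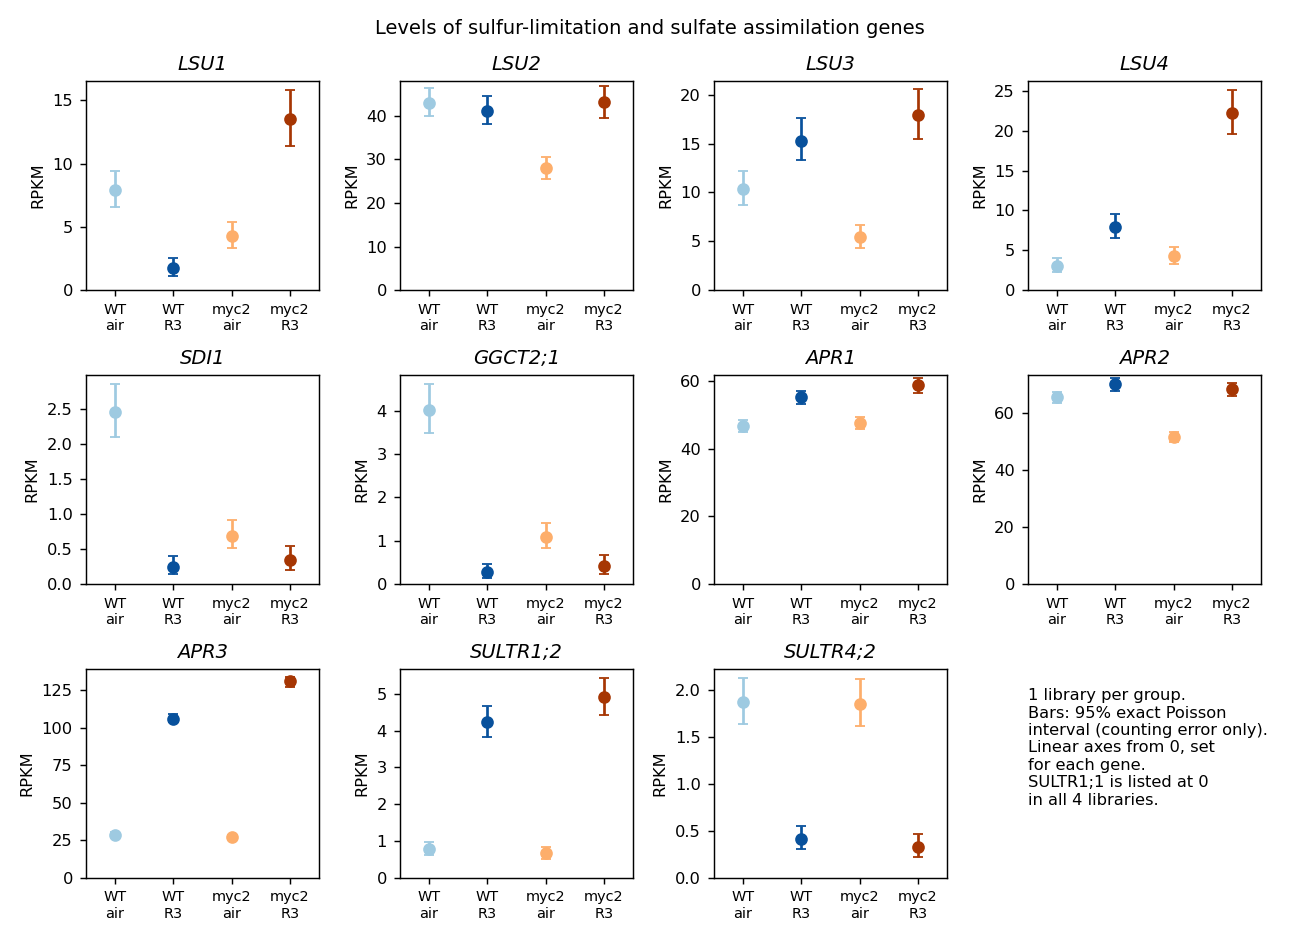
Level of each gene in RPKM on a linear axis from 0, with 1 point per library and bars for the 95% exact Poisson interval of its reads. LSU1 is lowest in WT R3 and highest in myc2 R3, SDI1 and GGCT2;1 are high in WT air alone, and APR3 and SULTR1;2 are high in both R3 libraries.

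LSU1, a small protein gene of the low-sulfur response, went opposite ways in the 2 genotypes. It was at 7.90 RPKM in air and 1.75 at R3 in WT, and at 4.26 and 13.5 in myc2, from 119, 25, 67 and 155 reads. The lowest library was thus WT R3 and the highest myc2 R3, and none of the 4 Poisson intervals overlapped. R3 was 4.52-fold lower than air in WT (interval 2.92 to 7.26) and 3.16-fold higher than air in myc2 (2.36 to 4.27). Between genotypes, myc2 was 1.85-fold lower than WT in air (1.36 to 2.54) and 7.70-fold higher at R3 (5.03 to 12.3). On the log2(RPKM + 1) scale used for counts over all loci, which understates the change of low genes, the response was -1.69 in WT and 1.46 in myc2, a difference of 3.15. Of 17540 loci whose mean reached 1 RPKM, LSU1 was at rank 3 for that difference, and at rank 15 of 17491 for myc2 R3 against WT R3. A longer length inside the gene would also turn the LSU1 values into whole reads, with more reads and narrower intervals than those given.

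LSU3, the chromosome 3 neighbour of LSU1, was higher at R3 than in air in both genotypes, and the step was larger in myc2. It was at 10.4 RPKM in air and 15.3 at R3 in WT, and at 5.40 and 17.9 in myc2. The R3 library was 1.48-fold higher than air in WT (1.19 to 1.84) and 3.32-fold higher in myc2 (2.55 to 4.36). Most of the contrast between genotypes lay in air, where myc2 was 1.92-fold lower (1.45 to 2.55), while at R3 myc2 was at 1.17 times WT (0.959 to 1.43). The WT response of LSU3, 0.52 on the log2(RPKM + 1) scale, is close to the median of all loci, 0.57, and became -0.04 when libraries were rescaled to the median of ratios. LSU1 and LSU3 share 83.8% of their aligned coding bases, and neither gene span holds a run of 50 bases found elsewhere in the genome.

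The chromosome 5 pair showed a different split. LSU2 was at 43.0 RPKM in air and 41.2 at R3 in WT, and at 28.0 and 43.1 in myc2. On the deposited scale myc2 air alone was thus low. Its ratio of R3 to air was 0.959 in WT (0.860 to 1.07) and 1.54 in myc2 (1.36 to 1.74), and myc2 was 1.54-fold lower than WT in air (1.36 to 1.73). The small WT difference of LSU2 changed sign when each library was rescaled to a sum of 1000000. On the log2(RPKM + 1) scale the LSU2 response was -0.06 in WT and 0.60 in myc2. Median-of-ratios rescaling made these -0.65 and 0.29, so its shape over the 4 libraries depends on the scaling. LSU4, its neighbour and not one of the 10, was at 3.06, 7.97, 4.25 and 22.2 RPKM in the same order. R3 was 2.60-fold higher in WT (1.84 to 3.73) and 5.22-fold higher in myc2 (3.98 to 6.92) for LSU4, and myc2 R3 stood 2.78-fold above WT R3 (2.23 to 3.5). All 4 LSU genes therefore had a higher ratio of R3 to air in myc2 than in WT. In air, the 3 LSU genes of the group were lower in myc2 than in WT beyond counting error, whereas LSU4 was not (1.39 times WT, 0.943 to 2.06). LSU2 and LSU4 share 88.9% of their aligned coding bases.

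SDI1 stood out in WT air. It was at 2.46 RPKM in air and 0.249 at R3 in WT, and at 0.692 and 0.347 in myc2, from 167, 16, 49 and 18 reads. The WT air library was far above the other 3, and the intervals of the 2 R3 libraries overlapped. SDI1 was 9.90-fold lower at R3 than in air in WT (5.92 to 17.7) and 1.99-fold lower in myc2 (1.14 to 3.64). In air, myc2 was 3.55-fold lower than WT (2.57 to 4.99). At R3 the ratio of myc2 to WT was 1.40, with an interval from 0.673 to 2.93 that at this depth shows no difference either way. GGCT2;1, a cyclotransferase that breaks down glutathione and another gene of sulfur starvation, had nearly the same shape at 4.01, 0.273, 1.09 and 0.418 RPKM. It was 14.7-fold lower at R3 in WT (8.39 to 28.0), 2.61-fold lower in myc2 (1.48 to 4.87), and 3.68-fold lower in myc2 than in WT in air (2.73 to 5.03). SDI1 and GGCT2;1 are both among the 57 loci at least 2-fold lower in myc2 air than in WT air.

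The 3 APS reductase genes, whose enzymes catalyse the reduction step that is known to control flux into cysteine, did not move alike. APR3 was at 28.8 RPKM in air and 106 at R3 in WT, and at 26.9 and 131 in myc2, and both R3 libraries were far above both air libraries. R3 was 3.68-fold higher than air in WT (3.49 to 3.88) and 4.84-fold higher in myc2 (4.59 to 5.11). APR1 was at 46.7, 55.3, 47.7 and 58.8 RPKM in the same order, a ratio of R3 to air of 1.18 in WT (1.12 to 1.25) and 1.23 in myc2 (1.17 to 1.30). APR2 was at 65.3, 69.9, 51.4 and 68.1 RPKM, with ratios of 1.07 in WT (1.02 to 1.12) and 1.33 in myc2 (1.26 to 1.39). On the deposited scale myc2 air was its low library. The APR1 and APR2 responses in WT lay below the median of all loci, and after median-of-ratios rescaling they were -0.36 and -0.50 on the log2(RPKM + 1) scale. In myc2 the APR1 and APR2 responses became -0.02 and 0.08, while APR3 kept its direction under all 7 alternative settings. In air the APR2 level was 1.27-fold lower in myc2 than in WT (1.21 to 1.33). Genes annotated on the opposite strand (AT1G62170 and AT1G08477) overlap exon bases of APR2 by 1007 when summed. For APR1 or APR3 such overlap is at most 27 bases, and the use of strand in counting is unknown.

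Of the sulfate carriers, SULTR1;2 was higher at R3 than in air and SULTR4;2 was lower, in both genotypes, and SULTR1;1 was listed at 0. SULTR1;2, a high-affinity carrier known for uptake into roots, was at 0.783 RPKM in air and 4.24 at R3 in WT, and at 0.664 and 4.91 in myc2. It was 5.42-fold higher at R3 in WT (4.24 to 7) and 7.40-fold higher in myc2 (5.71 to 9.71), and at R3 myc2 was at 1.16 times WT (interval 1 to 1.34). SULTR4;2, which releases sulfate from the vacuole, was at 1.87, 0.412, 1.85 and 0.327 RPKM in the same order. It was 4.54-fold lower at R3 in WT (3.30 to 6.36) and 5.66-fold lower in myc2 (3.86 to 8.58), so the R3 library was the low one in both genotypes. SULTR1;1, the other uptake carrier of roots, was listed at 0 in all 4 libraries, as were 6709 loci in all, 3034 of them protein-coding. A count of 0 reads over its gene span of 6001 bases allows up to 0.0171 RPKM in air and 0.0180 at R3 in WT, and 0.0164 and 0.0224 in myc2. Per annotated exon kilobase the limits are higher, 0.0435 and 0.0459 in WT, and 0.0417 and 0.0570 in myc2. The length behind its deposited values is unknown. A listed 0 can also come from a failed estimate, which was not tested. Of the 7 root markers above, PYK10, IRT1 and NRT2.1 were also higher at R3 than in air in both genotypes. The other root markers did not share this. In myc2, COBL9, CASP1 and PRP3 fell from 0.0129, 0.198 and 0.0516 RPKM to a listed 0. In WT, PRP3 went from a listed 0 to 0.085 RPKM. COBL9 (0.0135 and 0.0142 RPKM) and CASP1 (0.0885 and 0.0933) were nearly unchanged there. EXPA7 was above 0 in myc2 R3 alone. IRT1 was low in every library, with 0.0413 RPKM for myc2 air against 0.0846 for myc2 R3. The root markers carry no counting interval here. NRT2.1 (0.0164, 1.42, 0.0471 and 1.87 RPKM) was highest in myc2 R3, while PYK10 and IRT1 were highest in WT R3. The part of root markers in the SULTR1;2 values was not tested.

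As a description only, genes of the group lay on both sides of the median of all loci. Among genes whose mean over both libraries reached 1 RPKM, 9 of the 10 passed in WT and 2 were at least 2-fold higher at R3, APR3 and SULTR1;2, beside 31.3% of all 17271 loci tested. In WT 3 of the 9 were at least 2-fold lower, LSU1, SDI1 and SULTR4;2, beside 10.1% of all loci. In myc2 8 passed (SULTR1;1, which passed nowhere, and SDI1 did not) and 4 were at least 2-fold higher, LSU1, LSU3, APR3 and SULTR1;2, beside 23.5% of 17737 loci. SULTR4;2 was the 1 gene at least 2-fold lower in myc2, beside 11.5% of loci, and the group's median was 0.10 in WT and 1.03 in myc2, against 0.57 and 0.30 for all loci. Over all loci the call counts were 5398 higher and 1751 lower in WT as deposited, and 2995 and 2959 after median-of-ratios rescaling. In myc2 they were 4175 and 2031 as deposited and 3011 and 2796 after it. That rescaling moved the all-locus median from 0.57 to 0.04 in WT and from 0.30 to 0.03 in myc2, and the group's counts were the same 2 higher and 3 lower in WT and 4 higher and 1 lower in myc2. These contrasts helped choose the genes, so their counts support no statement about the group.

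**Figure D3:**
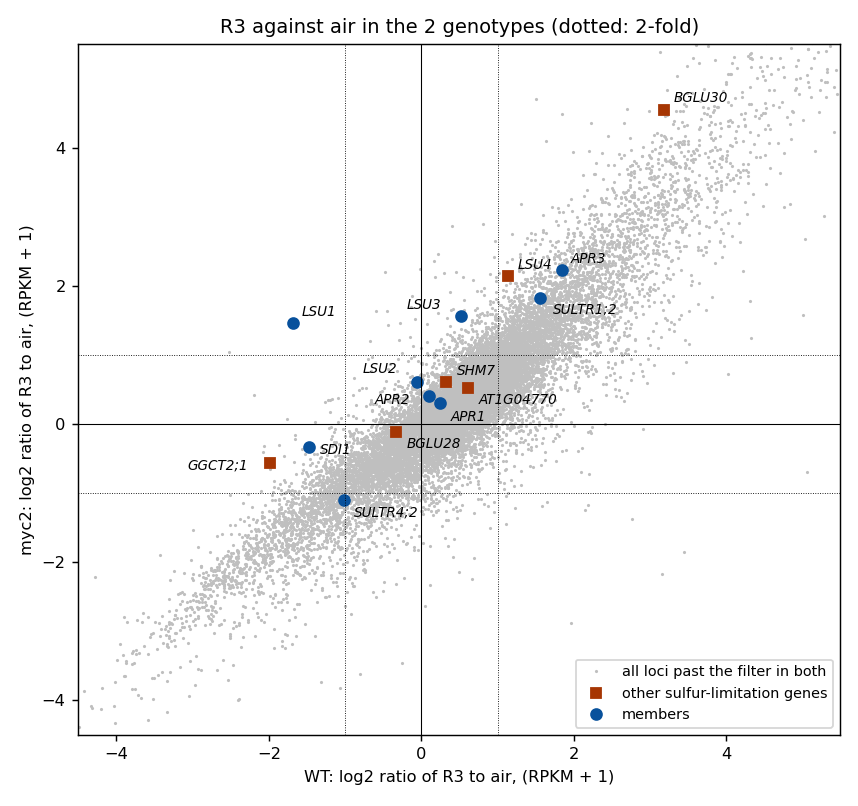
Log2 ratio of R3 to air in WT (horizontal) and myc2 (vertical), from RPKM + 1, with grey points for all loci past the filter in both genotypes, blue circles for the group and red squares for other sulfur-limitation genes; dotted lines mark 2-fold, and loci beyond the axis limits are not drawn. LSU1 sits at -1.69 and 1.46, in the corner of loci lower in WT and higher in myc2, which holds 1 other locus.

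Few loci shared the LSU1 pattern. Of 17097 loci that passed the filter in both genotypes, 2 were at least 2-fold lower at R3 in WT and at least 2-fold higher at R3 in myc2, which is 0.0117%. The other is BGL2 (AT3G57260, beta-1,3-glucanase 2, a defence protein), named after its values were seen, at 73.4, 12, 53.5 and 111 RPKM in the usual order (WT then myc2, air before R3). The reverse pattern was found in 12 loci (0.0702%). After median-of-ratios rescaling the first count was 5, with LSU1 among them and BGL2 not.

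Set side by side, the genotypes differed most for LSU1 at R3 and for SDI1 in air. In air, 8 genes of the group passed (SULTR1;2 did not), none was at least 2-fold higher in myc2 (2.47% of 16616 loci were) and 1 was at least 2-fold lower, SDI1 (0.343% of loci). LSU1, LSU2 and LSU3 were at -0.76, -0.60 and -0.83 on the log2(RPKM + 1) scale, while the median of all loci was 0.22. After median-of-ratios rescaling, LSU1 and LSU3 joined SDI1, making 3 genes lower, and the split of all loci went from 410 higher and 57 lower to 215 and 127. At R3, 7 genes passed (SDI1 and SULTR4;2 did not) and 1 was at least 2-fold higher in myc2, LSU1 (1.92% of 17491 loci), and none was at least 2-fold lower (1.6%). For the difference of responses, myc2 less WT, 8 genes passed (SDI1, at 1.14, did not), of which LSU1 (3.15) and LSU3 (1.04) were at least 1 log2 unit higher, beside 1.51% of 17540 loci. None was at least 1 unit lower (5.2% of loci). Rescaled, 3 genes were higher, and the split of all loci for that difference went from 264 higher and 912 lower to 498 and 525. The responses and the genotype contrasts share libraries, so these 4 sets of values are not independent of each other.

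**Figure D4:**
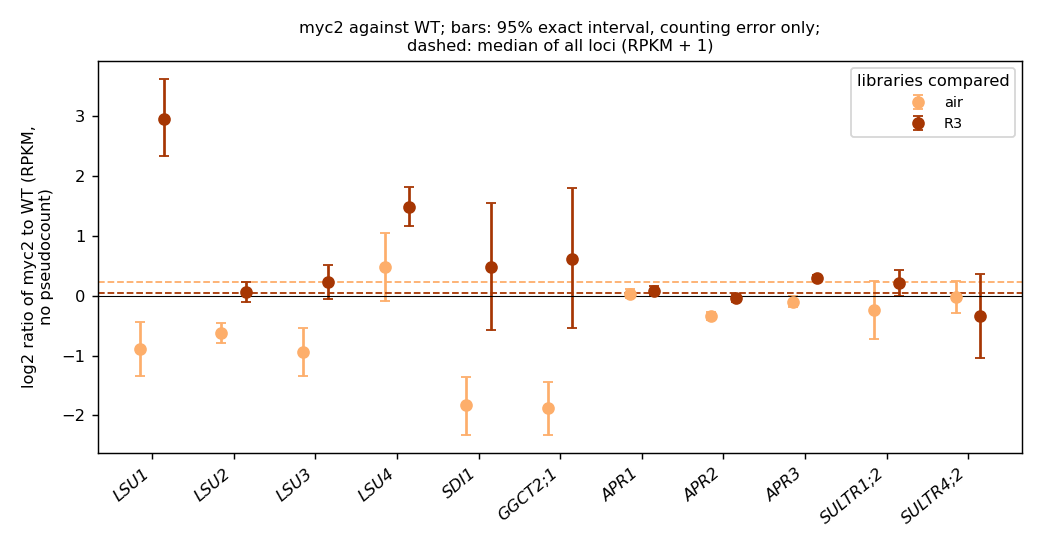
Log2 ratio of myc2 to WT in air and at R3 for each gene, from RPKM without a pseudocount, with bars for the 95% exact interval of the read ratio and dashed lines at the median of all loci. In air LSU1, LSU2, LSU3, SDI1, GGCT2;1, APR2 and APR3 lie below 0 with intervals that exclude it. APR2 (0.788 times WT) and APR3 (0.934 times WT) lie nearest to 0 among these. At R3 LSU1 and LSU4 lie far above 0.

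The remaining genes of the pathway were described through 6 lists with 40 genes. Their median log2 ratio of R3 to air, in WT and then myc2, was 0.61 and 1.38 for other sulfur-limitation genes, 1.11 and 0.46 for other sulfate carriers, and 0.05 and -0.08 for sulfate activation and sulfite reduction. It was 0.58 and 0.74 for the APS kinase branch, -0.06 and -0.18 for cysteine synthesis and breakdown, and 1.90 and 1.72 for the regulators, beside 0.57 and 0.30 for all loci. Of the other sulfur-limitation genes, 5 of 6 passed in WT, where 2 were higher at R3 by 2-fold or more and 1 was lower by as much, and 4 passed in myc2, where 2 were higher. Of all loci 31.3% were higher and 10.1% lower in WT, and 23.5% were higher in myc2. After median-of-ratios rescaling 1 was higher and 1 lower in WT, as LSU4 went from 1.14 to 0.65 on the log2(RPKM + 1) scale. BGLU30, a beta-glucosidase, was at 0.0742 RPKM in air and 8.82 at R3 in WT, and at 0.0237 and 23.0 in myc2. AT1G04770, listed here under the name SDI2 though without a symbol in the reference, was at 6.97, 11.2, 7.99 and 11.9 RPKM. Where SDI1 was lower at R3, AT1G04770 was 1.61-fold higher in WT (1.39 to 1.86) and 1.49-fold higher in myc2 (1.29 to 1.72). Its responses, 0.61 and 0.52 on the log2(RPKM + 1) scale, became 0.07 and 0.22 after median-of-ratios rescaling. SHM7, a serine hydroxymethyltransferase, was at 9.50, 12.2, 8.77 and 14.0 RPKM. BGLU28 stayed below the filter, between 0.0307 and 0.291 RPKM. Outside the group, GGCT2;1 was thus low at R3 and BGLU30 and LSU4 were high.

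Among the other sulfate carriers, 6 of 9 passed, 4 were at least 2-fold higher at R3 in WT and 1 in myc2, and none was at least 2-fold lower on the log2(RPKM + 1) scale. The shares of all loci were 31.3% higher and 10.1% lower in WT, and 23.5% and 11.5% in myc2. SULTR3;4 was at 0.958, 5.46, 1.1 and 7.02 RPKM, SULTR3;3 at 5.13, 13.7, 5.19 and 9.45, and SULTR4;1, the vacuolar relative of SULTR4;2, at 7.13, 16.4, 5.16 and 10.7. SULTR4;1 and SULTR4;2 therefore went in opposite directions at R3, on log2(RPKM + 1) 1.1 and -1.02 in WT and 0.92 and -1.1 in myc2. SULTR3;1 was at 5.57, 13.4, 7.26 and 8.23 RPKM, and its difference of responses was -0.97. SULTR2;1 and SULTR2;2, carriers of the vasculature named after their values were seen, were lower at R3, at 25.6, 15.1, 18.6 and 10.1 RPKM and at 3.10, 1.41, 2.76 and 1.33 RPKM. Without the pseudocount SULTR2;2 was 2.20-fold lower in WT (1.87 to 2.60) and 2.07-fold lower in myc2 (1.73 to 2.49). After median-of-ratios rescaling the WT count for this list was 1 higher and 2 lower, and in myc2 1 higher and 1 lower.

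Of the genes of sulfate activation and sulfite reduction, 5 of 5 passed and 1 was at least 2-fold lower at R3 in each genotype, beside 10.1% of all loci in WT and 11.5% in myc2. That gene was ATPS3, an ATP sulfurylase, at 17.7, 7.67, 17.2 and 5.90 RPKM. ATPS1, the most abundant ATP sulfurylase, was at 197, 297, 178 and 263 RPKM, and ATPS4 at 38.7, 48.8, 39.5 and 45.4. In the APS kinase branch, which diverts APS to sulfation reactions, 2 of 5 were at least 2-fold higher at R3 in each genotype, beside 31.3% of all loci in WT and 23.5% in myc2. These were APK3 (4.43, 9.99, 4.99 and 14.0 RPKM) and APK4 (0.887, 4.34, 1.24 and 4.24 RPKM). SAL1, a phosphatase of the same branch, was at 28.2, 37.2, 28.5 and 28.4 RPKM. After the rescaling 1 gene of that branch was at least 2-fold higher in each genotype, and not the same one. It was APK4 in WT (1.13 on the log2(RPKM + 1) scale) and APK3 in myc2 (1.03).

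Of 11 genes of cysteine synthesis and breakdown, 10 passed, with 2 at least 2-fold higher and 3 lower at R3 in WT, and 2 higher and 2 lower in myc2. The shares of all loci were 31.3% and 10.1% in WT, and 23.5% and 11.5% in myc2. SERAT2;1, a plastid serine acetyltransferase, was at 14.4, 78.2, 14.2 and 142 RPKM. OASB, the plastid O-acetylserine(thiol)lyase, was at 43.3, 15.8, 35.1 and 13.3 RPKM, and DES1, a cysteine desulfhydrase, at 8.4, 1.82, 6.45 and 2.78. The rescaled counts were 1 higher and 4 lower in WT, and 1 higher and 3 lower in myc2. Among the regulators, 3 of 4 were at least 2-fold higher at R3 in WT, and 3 were higher and 1 lower in myc2, beside the same shares. HYH, a bZIP factor of light signalling, was at 10, 93.3, 10.8 and 140 RPKM, and HY5, its relative, at 5.33, 33.5, 5.90 and 32.8. SLIM1, the regulator known for the sulfur-limitation response, was at 4.52, 13.1, 5 and 12.3 RPKM, and EIL1, its relative of the ethylene pathway, at 23.2, 13.4, 28.2 and 12.6. The rescaled regulator counts were 2 higher and 1 lower in both genotypes. SLIM1 had nearly the same level in the 2 genotypes in each condition.

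**Figure D5:**
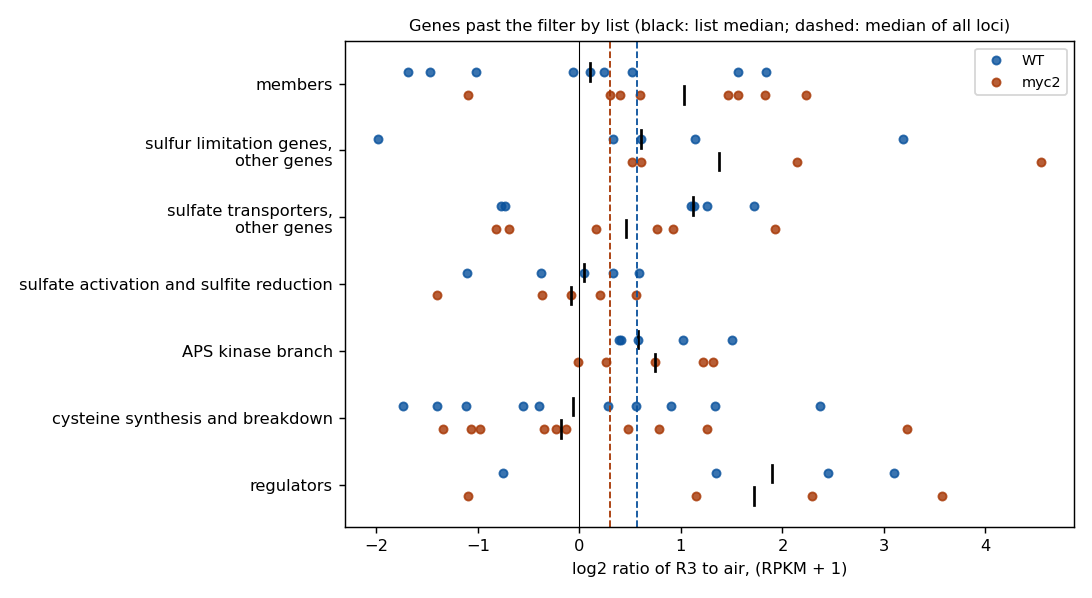
Log2 ratio of R3 to air from RPKM + 1 for each gene past the filter, by list, in WT (blue) and myc2 (red), with black ticks for the list median and dashed lines for the median of all loci. The group's median is 0.10 in WT and 1.03 in myc2, and the regulators lie highest in both, at 1.90 and 1.72.

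The loci with the profile nearest to each gene were sought among 12053 loci whose mean reached 5 RPKM, by the distance between log2(RPKM + 1) profiles over the 4 libraries after centring each on its mean. No locus came close to LSU1, but its opposite directions were known when it was chosen, so its distances are a description. The distance also tends to grow with the size of a profile's changes, so flat profiles find near neighbours more easily. Its nearest was the chloroplast locus ATCG00300 at a distance of 0.79, followed by BGL2 at 0.83, RING1 (44.7, 23.8, 36.3 and 57.9 RPKM) at 0.88, ATCG00220 at 0.89 and ATCG01130 at 0.91. Other genes of the group had far nearer neighbours, such as CYP71A22 for LSU2 at 0.05, AT1G64360 for SDI1 at 0.11, AT5G14730 for APR3 at 0.08, AT3G59350 for SULTR1;2 at 0.05 and AT3G05936 for SULTR4;2 at 0.06. LSU3 was the next most isolated, at 0.26 from AT5G13370. Among the pairs compared within the pathway, LSU2 and APR2 were nearest at 0.20, followed by APR1 and APR2 at 0.28. Next came APR1 and AT1G04770 at 0.32, APR3 and SULTR1;2 at 0.36, and SDI1 and GGCT2;1 at 0.40. The tandem neighbours were far apart, LSU1 and LSU3 by 1.93 and LSU2 and LSU4 by 1.79. With 4 libraries a small distance describes these samples alone.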

How the data were processed

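Leaf RNA of 4 libraries was used, 1 per group, grouped by sample title. The authors deposited 1 table per library of RPKM values. Per the file headers, 1 table (WT R3) carries FPKM as its heading, and it was read as the same unit. Per the submitters' processing notes, which give no versions, TopHat, Cufflinks and TAIR10 were used. How strand and multi-mapping reads were handled is not given in the sources used here. The deposited values were turned back into reads: 99.9% of the loci with 4 values above 0 gave whole reads within 0.003 reads, under 1 length each. That length matched a genomic span with introns for 3612 of 17439 loci with several exons and a spliced length for 96. Recovery was checked on 300 simulated loci, of which 97% came back. No count test was run, since 1 library per group leaves no residual spread.

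Levels carry exact Poisson intervals and ratios exact binomial (Clopper-Pearson) ones, both at 95%, and a value of 0 a limit of 3 reads. For counts over all loci, log2((RPKM + 1)/(RPKM + 1)) was used among loci whose mean over those libraries reached 1 RPKM, and 2-fold was the threshold. Tested on simulated data for WT R3 against WT air, 87% of genes altered 3-fold (16022 genes run) were called. Of genes altered 4-fold (16017 genes run) 93.5% were called, and of unaltered genes 0.0126%. With 1 library per group the spread between replicates is unknown, so these rates are not error rates for the real calls. The alternatives were pseudocounts of 0.1 and 5, no filter, a filter at 5 RPKM, and 3 rescalings (median of ratios, sum of 1000000, sum without the 50 highest genes). Levels per annotated exon base were added after seeing the data.

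The genes and lists were chosen with earlier results of these data known. The text names all 10 genes, MYC2, the nearest profiles, and from each list the 2 genes with the largest absolute WT response, myc2 response and difference of responses. AT1G04770, SHM7, BGLU28, OASC, SLIM1, SULTR2;1, SULTR2;2 and BGL2 fall outside that rule and were chosen after their values were seen. Promoters of 300 bases and gene positions come from the RefSeq assembly TAIR10.1. Python 3.11.15, pandas 2.3.3, numpy 2.4.6, scipy 1.17.1 and matplotlib 3.10.9 were used.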

Additional observations from a re-analysis of the deposited data

Results flagged for a closer look

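LSU1 differed between WT and myc2 because R3 was lower than air in WT and higher than air in myc2, beyond counting error in both, with a difference of responses of 3.15 on the log2(RPKM + 1) scale. The difference was not tested, since each group is 1 library.

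OASC, the mitochondrial O-acetylserine(thiol)lyase, went the other way, at 9.06 RPKM in air and 13.8 at R3 in WT, and at 12.8 and 11.6 in myc2. R3 was 1.52 times air in WT (1.40 to 1.66) and 0.910 times air in myc2 (0.836 to 0.991), a difference of responses of -0.68 that was not tested either. After median-of-ratios rescaling the WT response rounded to 0 and the myc2 response was -0.42, so the opposite directions were not kept under that scaling.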

How the results depend on the processing

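No paired analysis was possible because each group holds 1 library. With 1 library per group no replicate could be left out. The group's counts and the count of opposite loci were recomputed under the 7 alternatives. Of these values, 62 stayed within 1.5 times the reported value and 15 did not, and no gene of the group that was called reversed its direction. Counts over all loci and single-gene ratios, the latter judged by their counting interval, lie outside that split. Among them 254 stayed and 85 moved. Under median of ratios, for example, all loci at least 2-fold lower in myc2 air went from 57 to 127. With a pseudocount of 5, the group's genes at least 2-fold higher in WT went from 2 to 1 and those lower from 3 to 0, in myc2 the higher went from 4 to 2 and the lower from 1 to 0, and in air the gene lower in myc2 from 1 to 0. The genes with a higher difference of responses went from 2 to 1 and the loci lower in WT and higher in myc2 from 2 to 0. A filter at 5 RPKM gave 1 higher and 0 lower in WT, 0 lower in myc2, 0 lower in air, and 1 locus of opposite direction, which was not LSU1. Median-of-ratios rescaling gave 3 genes lower in myc2 air and 5 opposite loci, and the sum without the 50 highest genes gave 1, LSU1. LSU1 kept its direction wherever it passed, which leaves out the filter at 5 RPKM in WT, with a difference of responses from 1.93 to 3.75. Low genes such as SDI1, with 16 reads in WT R3, are limited by depth.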
